A study of Rattus norvegicus with 6 samples.

Results

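The genes described here are 8 inhibitors of TGF-β signaling, Smad7, Smurf1, Smurf2, Pmepa1, Bambi, Ski, Skil and Tgif1. They were taken by gene symbol from the deposited table, and all 8 were found among its 18420 genes. RNA-seq, which counts the RNA fragments of each gene, was done on 6 libraries of primary chondrocytes, the cells of cartilage, from wild-type male Sprague-Dawley rats. The TNF-α group (n = 3) was exposed for 6 h to TNF-α at 10 ng/mL, and the TNF-α+NFL group (n = 3) had the same exposure followed by NFL for 24 h. NFL, Nanofat lysate, is the cleared freeze–thaw extract of cells from rat belly fat. Both groups thus had TNF-α, and cells without it were not analysed here. The labels give 6 h as the time point of the TNF-α group and 30 h as that of the TNF-α+NFL group, so an effect of NFL and an effect of the later harvest cannot be told apart. The cells were used at the third passage and were divided at random from the same passage, and nothing in the labels says that replicates came from separate rats, so p-values measure the spread between these samples.

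TGF-β ligands bind the type II receptor, which activates the type I receptor ALK5, and this kinase phosphorylates SMAD2 and SMAD3, which enter the nucleus with SMAD4. In articular cartilage this pathway is known to support matrix production and to hold back hypertrophy. Several of its own target genes encode inhibitors, so the signal limits itself. SMAD7 occupies the type I receptor and brings the ubiquitin ligases SMURF1 and SMURF2 to it, PMEPA1 holds SMADs at membranes, and BAMBI is a receptor without a kinase. SKI, SNON (from Skil) and TGIF1 bind SMAD complexes on DNA and recruit co-repressors.

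The libraries held between 19344893 and 19725135 estimated counts each. All 8 inhibitors passed the filter on low counts, and each was counted in every library. TNF-α replicates 1 and 3 lay at opposite ends of the first principal component (-25.15 and 22.92, 25.8% of the variance), about equally far out. Results are also given without TNF-α replicate 1 where that changes a call or a count. Without TNF-α replicate 3 instead, 0 inhibitors were called. The direction of change between the treated groups in the study's supplementary gene list is the opposite of that between the deposited labels. Every direction below follows the deposited labels. CPM below are counts scaled to library size, and TPM are also scaled to transcript length. Of 13 chondrocyte markers, 11 were tested with 0 called, and Matn1 and Cnmd had at most 4.1 counts. On the TPM scale Prg4 (948 to 1329) and Col11a1 (404 to 533) were high, while Col2a1 (7.10 to 9.54) and Acan (4.47 to 6.12) were low, and the fibroblast marker Col1a1 was at 1123 to 1401. All 7 fibroblast markers were tested with 0 called. Of 8 macrophage markers, 5 were in the table and 2, Cd14 and Cd68, were tested with 0 called. The summed level of this list was 78.0 to 80.8 CPM in the TNF-α libraries and 69.6 to 71.7 CPM under TNF-α+NFL, with Csf1r at 1 to 40 counts and Ptprc at 0 to 7. Without TNF-α replicate 1, edgeR called Col11a1 (adjusted p = 0.00055) and the fibroblast markers Col1a1 (0.0019) and Pdgfrb (0.0062) higher and Cd14 (0.023) lower. That fit called 3.43% of all genes higher and 3.51% lower. Of 8 adipocyte markers 4 were tested, with a sum of 16.7 to 20.3 and 17.6 to 20.3 CPM and Adipoq at 0 to 4 counts. The part of such cells in the results below was not tested. In bulk RNA, fewer cells of a type and less RNA per cell cannot be told apart.

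The stretches of promoter that precede 4 of the inhibitors are shown first, since SMAD proteins act on such regions and Skil, which had the smallest p of the 8, is among them. RefSeq promoter windows of 300 bases (250 before and 50 after the start of the gene, build GRCr8) matched 6 of the 8 genes, namely Smad7, Skil, Ski, Smurf2, Pmepa1 and Bambi, and Smurf1 and Tgif1 had no entry in the table used. Bases -90 to 10 around the start are printed 5′ to 3′. Capitals mark GGCGC or its complement GCGCC, a GC-rich element that SMAD proteins can bind, and TGACGTCA, the cyclic AMP response element, each searched on both strands.
Skil (chr2:114203563-114203662, minus strand): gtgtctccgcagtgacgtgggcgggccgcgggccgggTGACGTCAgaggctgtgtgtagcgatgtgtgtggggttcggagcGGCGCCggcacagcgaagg
Pmepa1 (chr3:182478640-182478739, minus strand): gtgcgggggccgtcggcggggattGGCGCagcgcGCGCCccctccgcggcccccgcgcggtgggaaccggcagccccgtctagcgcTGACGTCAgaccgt
Smad7 (chr18:71263418-71263517, plus strand): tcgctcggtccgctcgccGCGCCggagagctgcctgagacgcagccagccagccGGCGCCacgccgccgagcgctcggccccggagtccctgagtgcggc
Bambi (chr17:58820994-58821093, minus strand): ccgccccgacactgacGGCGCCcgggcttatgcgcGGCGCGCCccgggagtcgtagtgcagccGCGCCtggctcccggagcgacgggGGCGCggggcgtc

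All 6 windows held GGCGC, against 34.2% of the 33469 windows in the table. These windows were rich in G and C, from 70.3% to 79.3%, where the median window had 51.7%. TGACGTCA was found in Skil, at bases -53 to -46, and in Pmepa1, at bases -4 to 4 across the start, against 1.83% of all windows. The palindromic SMAD element GTCTAGAC (0.197% of all windows), the CAGA box CAGACA (21.1%), the AP-1 element TGACTCA (4.63%) and the NF-κB element of the immunoglobulin kappa enhancer (0.111%) were in none of the 6 windows. A match is a run of letters and not a measured binding site.

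Each of the inhibitors was expressed, and the levels are compared on the deposited TPM scale, which is per transcript length. Pmepa1 was highest, at 573 ± 6.49 TPM under TNF-α and 612 ± 44.9 TPM under TNF-α+NFL (SD, n = 3 each). Tgif1, Ski and Smurf2 followed, at 85.8 ± 4.03, 64.9 ± 4.18 and 52.0 ± 2.10 TPM in the TNF-α group (SD, n = 3). Smad7 was at 40.9 ± 1.36, Skil at 36.4 ± 1.96 and Smurf1 at 27.5 ± 1.18 TPM in that group. Bambi was lowest, at 5.94 ± 1.05 TPM (SD, n = 3).

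In this order, the ranges of neighbours did not overlap within either group, with 1 exception. Smad7 lay above Skil in the TNF-α libraries, by 1.10 to 1.16 times, whereas in the TNF-α+NFL libraries their ranges overlapped and the ratio was 1.03 to 1.07. Per length, Pmepa1 was 6.44 to 8.20 times Tgif1 in the same library. Its level rests on a short transcript model, since the counts and the FPKM values imply an effective length of 763 bases for Pmepa1, against 1378 for Tgif1 and 7219 for Skil.

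**Figure D1:**
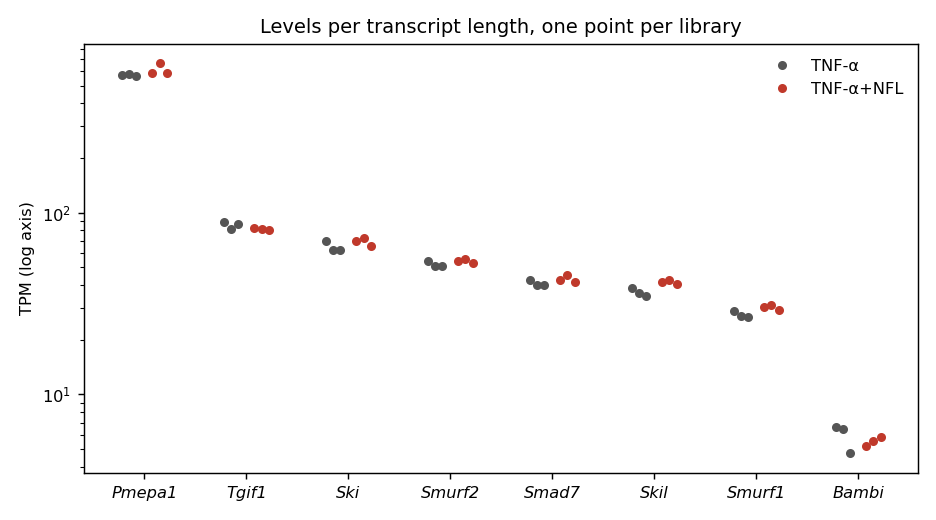
Deposited TPM of each inhibitor (log axis), with 1 point per library and the groups in different colours. Pmepa1 lies above all others, Bambi below all others, and Smad7 and Skil come together in the TNF-α+NFL libraries.

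Between the groups, 0 of the 8 inhibitors passed an adjusted p of 0.05 in edgeR's quasi-likelihood test, which called 0.611% of the 13250 genes tested, 0.408% higher and 0.204% lower under TNF-α+NFL. At an unadjusted p under 0.05 there were 3, against 11.1% of all genes. They were Skil and Smurf1, with higher means under TNF-α+NFL (5.66% of all genes), and Tgif1, with a lower mean (5.45% of all genes). The groups did not overlap for the same 3 genes, against 16.8% of all genes, 8.66% higher and 8.17% lower. None of the 8 had a fitted change of 1.5-fold or more, which 1.61% of all genes had.

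Leaving out TNF-α replicate 1 raised these counts for the inhibitors and for genes at large. Of the 8, 1 was then called, Skil, with a higher level, where 6.94% of all genes were called, 3.43% higher and 3.51% lower. At an unadjusted p under 0.05 there were 3 higher and 1 lower, against 10.4% and 9.82% of all genes, 20.3% in all. The groups did not overlap for 6 of the 8, against 37.3% of all genes. Leaving out TNF-α replicate 3 or TNF-α+NFL replicate 2 instead left 1 of the 8, Skil, at an unadjusted p under 0.05, with 0 called. The shares of all genes in those fits were not computed.

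The fitted log2 fold change was above 0 for 6 of the 8 and below 0 for Tgif1 and Bambi. Its median over the 8 was 0.054, against -0.0035 over all genes tested, and the median of its size was 0.084 against 0.068. Without TNF-α+NFL replicate 2 the median over the 8 was 0.019. For the 7 genes other than Bambi, the 95% intervals of the change together ran from -13.9% to 18.95%.

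**Figure D2:**
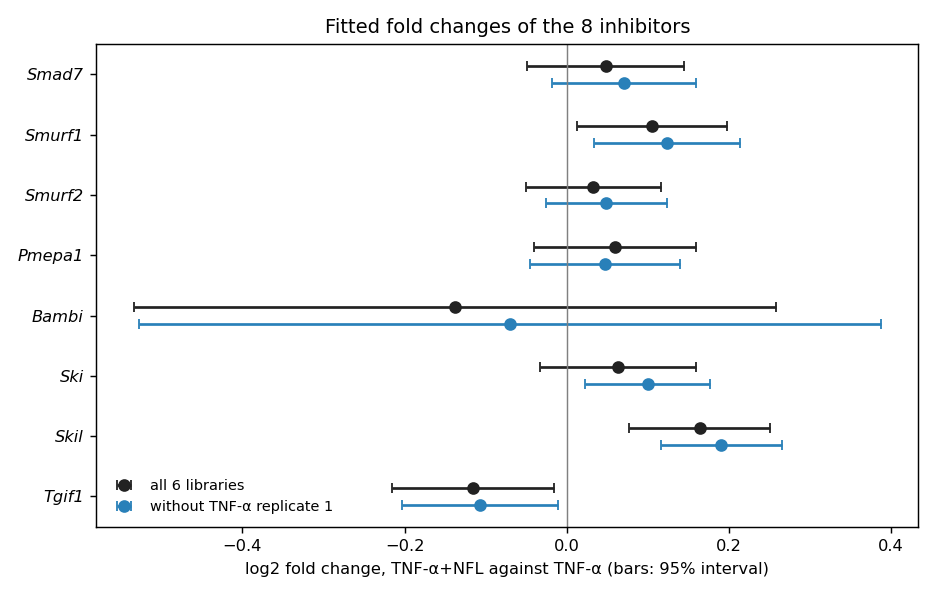
Fitted log2 fold change of each inhibitor, libraries labelled TNF-α+NFL against TNF-α, with its 95% interval, from all 6 libraries (black) and without TNF-α replicate 1 (blue). The intervals of Skil, Smurf1 and Tgif1 leave out 0 in both of these fits, that of Ski does so only without TNF-α replicate 1, and that of Bambi is the widest.

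Smad7 encodes the inhibitory SMAD that blocks the type I receptor, and both TGF-β and NF-κB are known to act on its promoter. Its CPM was 91.6, 87.9 and 87.3 in TNF-α replicates 1, 2 and 3, and 91.0, 96.0 and 88.7 in the same replicates under TNF-α+NFL. The groups overlapped, since TNF-α replicate 1 lay above 2 of the TNF-α+NFL libraries. By edgeR's quasi-likelihood test, the log2 fold change of 0.048 ± 0.045 (SE) had an adjusted p of 0.77, and the 95% interval of the change was -3.36% to 10.6%. The log2 fold change was 0.016 without TNF-α+NFL replicate 2 and 0.074 without TNF-α+NFL replicate 3. Smad7 was the only gene of the 8 with a fractional estimated count, in a single library.

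Smurf1 and Smurf2 encode the HECT-type ubiquitin ligases that SMAD7 brings to the receptor. The CPM of Smurf1 was 74.6, 71.7 and 72.1 in the TNF-α replicates and 78.8, 80.05 and 76.1 in the TNF-α+NFL replicates, with no overlap. With edgeR's quasi-likelihood test the log2 fold change came to 0.11 ± 0.043 (SE) at an adjusted p of 0.37, a difference of 7.56% with a 95% interval of 0.868% to 14.7%. With 1 library left out, its unadjusted p was under 0.05 in 2 of 6 fits, which left out TNF-α replicate 1 or the third TNF-α+NFL replicate. For Smurf2, the CPM was 135, 131 and 132 in the TNF-α replicates and 136, 138 and 133 in the others. These values overlapped, and its log2 fold change of 0.033 ± 0.039 (SE) had an adjusted p of 0.83 in the same edgeR fit. Leaving out TNF-α+NFL replicate 2 made it 0.021.

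Pmepa1, whose product holds SMAD2 and SMAD3 away from the receptor and which TGF-β induces in many cells, had the highest counts of the 8, from 4208 to 4900. Its CPM was 220.3, 228 and 225 in the TNF-α replicates and 224, 251 and 227 in the TNF-α+NFL replicates. A single library, TNF-α+NFL replicate 2, lay above all the rest, and the other 5 lay between 220.3 and 228 CPM. The edgeR fit gave 0.060 ± 0.046 (log2 fold change, SE) and an adjusted p of 0.70. Without that library the log2 fold change was 0.0072, and without TNF-α+NFL replicate 1 it was 0.091.

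Bambi, the kinase-less pseudoreceptor, had only 40 to 54 counts per library. The counts were 52, 54 and 40 in the TNF-α replicates and 42, 44 and 47 in the TNF-α+NFL replicates, so TNF-α replicate 3 was the lowest of the 6 and the groups overlapped. In the edgeR fit its log2 fold change came to -0.14 ± 0.18 (SE), with an adjusted p of 0.85. The 95% interval of the change ran from -30.9% to 19.6%, the widest of the 8. Leaving out TNF-α replicate 3 made the log2 fold change -0.27, and leaving out TNF-α replicate 2 made it -0.062. Counting alone gives a coefficient of variation of 14.7% at this depth, and the replicates varied by 16.3% under TNF-α and by 5.50% under TNF-α+NFL.

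Ski and Skil encode related co-repressors that keep SMAD target genes silent until TGF-β signaling degrades them. Skil, itself a TGF-β target gene, had the smallest p of the 8. Its CPM was 139, 133 and 131 in the TNF-α replicates and 151, 153 and 148 in the TNF-α+NFL replicates. Each TNF-α+NFL library was above each TNF-α library, with means of 134 ± 4.42 and 151 ± 2.66 (SD, n = 3). For this difference edgeR's quasi-likelihood test gave a log2 fold change of 0.16 ± 0.040 (SE), an unadjusted p of 0.0013 and an adjusted p of 0.10. In linear terms this is 12.02%, with a 95% interval of 5.49% to 18.95%. By this p it stood at rank 168 of the 13250 genes tested. Without TNF-α replicate 1, the highest of its group, the log2 fold change was 0.19 and the adjusted p was 0.0019. When any other library was left out, the adjusted p was 0.23 to 0.43. The exact permutation p was 0.10 (two-sided), the smallest that 3 samples against 3 allow.

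Ski had a CPM of 187, 174 and 174 in the TNF-α replicates and 188, 193 and 178 in the TNF-α+NFL replicates. TNF-α replicate 1 lay above the other TNF-α libraries, among the values of the TNF-α+NFL group. Its fitted log2 fold change in edgeR was 0.063 ± 0.045 (SE) at an adjusted p of 0.66, and with 1 library left out it ranged from 0.039 (adjusted p = 0.92, without TNF-α+NFL replicate 2) to 0.0997 (adjusted p = 0.12, without TNF-α replicate 1).

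Tgif1 encodes a homeodomain co-repressor of SMAD2 and SMAD3. Its CPM was 61.3, 57.8 and 62.6 in the TNF-α replicates and 56.7, 55.6 and 55.5 in the TNF-α+NFL replicates, with no overlap. In edgeR this gave a log2 fold change of -0.12 ± 0.046 (SE), with an unadjusted p of 0.027 and an adjusted p of 0.36, and the 95% interval of the change was -13.9% to -1.09%. The unadjusted p was under 0.05 in 3 of the 6 fits with a library left out, and above it without TNF-α replicate 3, TNF-α+NFL replicate 2 or TNF-α+NFL replicate 3. On the deposited TPM scale the groups of Tgif1 did overlap, since TNF-α replicate 2 was at 81.3 and replicate 1 under TNF-α+NFL at 82.0. The other co-repressor genes, Ski and Skil, had fold changes of the other sign.

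**Figure D3:**
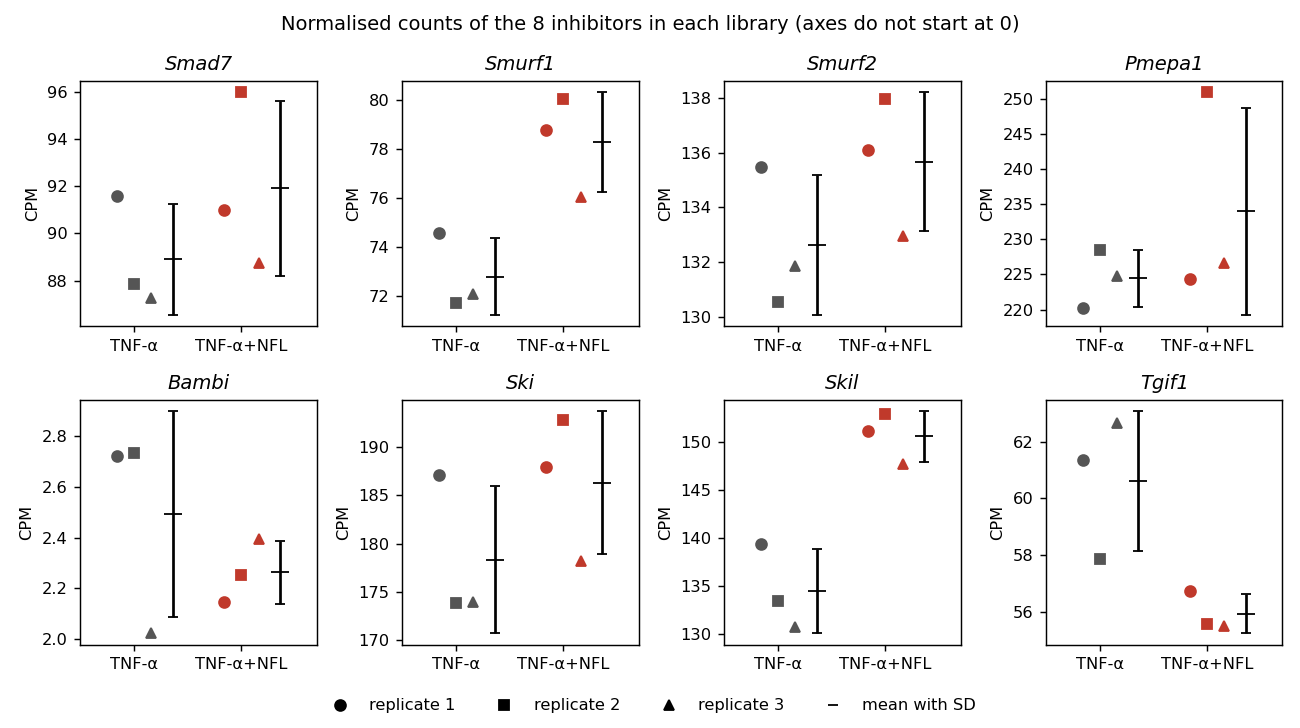
Normalised counts (CPM) of each inhibitor, 1 symbol per library and replicate number, with the mean and SD of each group beside the points; each panel has its own axis, which does not start at 0. Skil, Smurf1 and Tgif1 are separated by group, and TNF-α+NFL replicate 2 is the highest of its group in 6 of the 8 panels.

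The order of the libraries within a group was similar across several inhibitors. TNF-α replicate 1 was the highest of its group for 5 of the 8 genes, Smad7, Skil, Ski, Smurf1 and Smurf2, as it was for 37.9% of all genes tested. TNF-α+NFL replicate 2 was the highest of its group for 6 (35.4% of all genes) and TNF-α+NFL replicate 3 the lowest for 6 (34.0% of all genes). Summed over the 8 genes, the level was 885 to 912 CPM in the TNF-α libraries and 908 to 968 CPM in the TNF-α+NFL libraries, which overlapped.

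Ratios within a library do not depend on how libraries are scaled, so the 2 pairs of related genes were compared in that way. Skil had 0.745, 0.767 and 0.751 counts for each count of Ski in the TNF-α replicates and 0.804, 0.794 and 0.829 in the TNF-α+NFL replicates. All 3 of the latter were above the former. The mean log2 ratio was -0.41 ± 0.022 and -0.31 ± 0.032 (SD, n = 3), a difference of 0.10. From counting alone this log2 ratio would have an SD of 0.036, above the spread within either group.

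The ratio of Smurf2 to Smurf1 counts was 1.82, 1.82 and 1.83 in the TNF-α replicates and 1.73, 1.72 and 1.75 in the TNF-α+NFL replicates, with no overlap. The mean log2 ratio was 0.87 ± 0.0052 and 0.79 ± 0.011 (SD, n = 3), a difference of -0.072. Counting alone gives an SD of 0.047 for this log2 ratio, above the spread seen within either group. For both pairs the exact permutation p was 0.10 (two-sided, 2 comparisons, 0.10 after adjustment), the smallest that this design allows, so neither could pass 0.05.

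**Figure D4:**
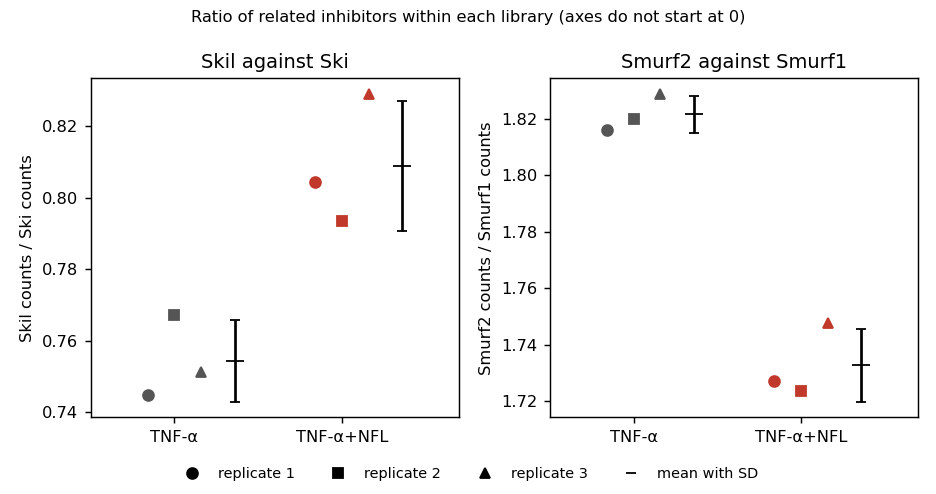
Ratio of estimated counts of Skil to Ski and of Smurf2 to Smurf1 within each library, with the mean and SD of each group; the axes do not start at 0. The groups do not overlap in either panel, with the Skil share higher and the Smurf2 share lower under TNF-α+NFL.

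For each inhibitor, the gene with the most similar pattern over the 6 libraries was found among about 9094 genes with a mean CPM of at least 10, by the root-mean-square difference of log2 CPM after each gene was centred on its own mean. It was Col5a2 for Skil, at a difference of 0.017, Psd3 for Smad7 (0.013), Mtmr3 for Ski (0.011), Ireb2 for Smurf1 (0.0091) and Yap1 for Smurf2 (0.0076). For Pmepa1 it was Top1 (0.020), for Tgif1 Armh4 (0.0094) and for Bambi Cd80 (0.052). Each was picked as the closest of so many genes over only 6 libraries, and shared control was not tested. Among the 8 themselves, Smad7 and Ski were the closest pair, at 0.021, and Skil and Bambi the farthest, at 0.20. The measure is not scaled, so it also follows how much each gene varies. The root-mean-square deviation from a gene's own mean was 0.16 for Bambi, 0.046 for Smad7 and 0.028 for Smurf2.

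The other genes of the pathway were described from lists of 68 genes, of which 67 were tested. Of these, edgeR called 4 higher and 1 lower under TNF-α+NFL, which is 7.46% against 0.611% of all genes. Without TNF-α replicate 1 it called 17, or 25.4% against 6.94%, and without TNF-α replicate 2 or any single TNF-α+NFL library it called 1, Tgfb3. These lists were written with results of these data known, so the shares are a description. With all 6 libraries the called genes were ligands and targets, with 0 called among the 5 receptors and co-receptors, the 3 receptor-regulated and common SMADs, the 13 other inhibitors, the 7 co-repressor partners and the 5 enzymes that counter the inhibitors. At an unadjusted p under 0.05 there were 1, 0, 1, 0 and 0 in these lists. Without TNF-α replicate 1, 1 of the 13 other inhibitors was called higher, Fmod (edgeR, adjusted p = 0.042), where 3.43% of all genes were.

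The ligand genes Tgfb3 and Tgfb2 were called, at log2 fold changes of 0.47 and 0.23 (edgeR, adjusted p = 0.00020 and 0.017), each larger than that of any of the 8 inhibitors, while Tgfb1 was at 0.0014. Whichever library was left out, Tgfb3 was called, while Tgfb2 was called in 1 of these 6 fits, that without TNF-α replicate 1. The receptor genes Tgfbr1 and Tgfbr2 were at 0.10 and -0.012, and Smad2, Smad3 and Smad4 at 0.063, 0.028 and -0.037 on the same log2 scale, with adjusted p from 0.43 to 0.95. Among the other inhibitors, Nedd4l, a HECT ubiquitin ligase like the SMURFs, had the largest value in size, -0.19 (unadjusted p = 0.039, adjusted p = 0.41, groups not overlapping, chosen after its values were seen). It lies farther from 0 than any of the 8. Relatives of the 8 included Smad6, the other inhibitory SMAD, at 0.084 (adjusted p = 0.54), Tgif2 at 0.014 (adjusted p = 0.97) and Ldlrad4, a relative of Pmepa1, at 0.036 (adjusted p = 0.874). Rnf111, the ligase that degrades SMAD7, SKI and SNON, was at 0.033 (adjusted p = 0.89).

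Among 23 TGF-β target genes, Acta2 (smooth muscle actin) rose by 0.28 on the log2 scale, and Id1, an inhibitor of DNA binding, fell by 0.28 (edgeR, adjusted p = 0.010 and 0.023). With 1 library left out, Acta2 was called in 2 of 6 fits and Id1 in 1. Without TNF-α replicate 1 the list had 8 genes called higher and 4 lower, where 3.43% and 3.51% of all genes were. The median of this list was -0.030, with 10 genes above 0 and 13 below, and that of the 8 inhibitors was 0.054. Among 26 tested TNF and NF-κB target genes, 6 were above 0 and 20 below, where 48.2% of all genes tested were above 0, and 2 were called lower (0.204% of all genes), Mmp13 at -0.31 and Ptgs2 at -0.26 (edgeR, adjusted p = 0.017 and 0.039). Each was called in 1 of the 6 fits with a library left out, and Mmp13 had an adjusted p of 0.057 without TNF-α replicate 1. That fit called 3 of the list lower, Ptgs2, Ccl2 and Sod2 (edgeR, adjusted p = 0.0056, 0.0093 and 0.019), and 3.51% of all genes lower. Nfkbia, which NF-κB induces as its own inhibitor, was at -0.054 (adjusted p = 0.63).

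**Figure D5:**
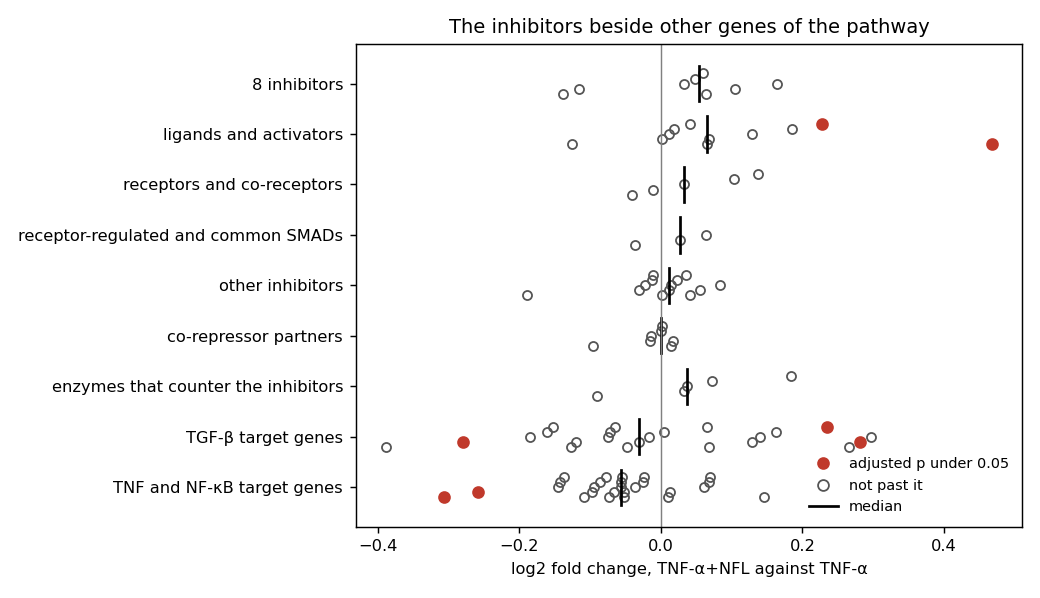
Fitted log2 fold change of the 8 inhibitors and of each gene in the other lists (libraries labelled TNF-α+NFL against TNF-α), with filled points for an adjusted p under 0.05 and a bar at each list's median. The inhibitors lie between -0.14 and 0.16 with no filled point, and the filled points are in the lists of ligands, TGF-β targets and TNF targets.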

How the data were processed

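Per the labels, mRNA was purified with oligo(dT) beads and sequenced as single-end reads of 50 bases. The submitters' processing notes name HISAT2 2.0.4, Bowtie2 2.2.5, RSEM 1.2.12 and build Rnor_6.0. The authors deposited estimated counts, not normalized, FPKM values, scaled to length and mapped reads, and TPM values, scaled to length and to the same sum per library. Expected counts were rounded and tested in edgeR 4.0.16 (R 4.3.3, filterByExpr, TMM, robust quasi-likelihood, two-sided, Benjamini-Hochberg over the 13250 genes tested). Standard errors and 95% intervals came from the F statistic. CPM used TMM library sizes, and TPM served for levels between genes. The inhibitors and lists were chosen with earlier results of these data known. Named genes were the 8 inhibitors, listed genes past an adjusted p of 0.05, 12 genes of the pathway and context lists whatever their p, and the most similar gene of each inhibitor. Other genes, markers among them, were chosen after their values were seen. The values of 1 gene that this rule names are not reported here. Ccn1 and Ccn2 were matched by identifier through RefSeq (GRCr8). No 2 replicates looked like 1 library, since their variance was 2.71 to 14.0 times counting noise. DESeq2 1.42.0, limma 3.58.1, other filters and left-out libraries were alternatives.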

Additional observations from a re-analysis of the deposited data

How the results depend on the processing

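In every setting run the 8 inhibitors kept the sign of their log2 fold change, and of the single-gene calls only that of Skil changed, without TNF-α replicate 1 (log2 fold change 0.19, adjusted p = 0.0019). Over the 8 settings that kept all libraries, the adjusted p of Skil ran from 0.065 with the DESeq2 Wald test to 0.29 on FPKM. The number of inhibitors called was 0 in each of those 8, and 0 to 1 when 1 library was left out. At an unadjusted p under 0.05 it was 1 with the DESeq2 Wald test and 1 to 4 with 1 library left out, where 1 was reached by leaving out TNF-α replicate 3 or TNF-α+NFL replicate 2. The number without overlap ran from 3 to 6 with 1 library left out. The highest of each of these counts came without TNF-α replicate 1. In that fit 6.94% of all genes were called, 20.3% had an unadjusted p under 0.05 and 37.3% did not overlap. These shares were not computed for the other left-out libraries. Of the other pathway genes, 9 were called with the DESeq2 Wald test, 1 on log2(FPKM + 1), 1 on log2(FPKM + 0.1) and 1 to 17 with 1 library left out. With a replicate block in the model, 0 inhibitors and 2 of these pathway genes were called, and the median over the inhibitors was 0.053. The numbers do not pair the samples, with correlations of the deviations of 0.043, -0.021 and 0.11. The block changed no call of an inhibitor, and the adjusted p of Skil was 0.18 with it. With 1 library left out, the median log2 fold change over the inhibitors ran from 0.019 to 0.079, the Skil to Ski difference from 0.083 to 0.11 and the Smurf2 to Smurf1 difference from -0.078 to -0.068. DESeq2, run with its default filter on mean counts, gave no adjusted p for Bambi (Wald test, unadjusted p = 0.63). The causes of the other differences between settings were not tested. Depth limits Bambi, at 40 to 54 counts.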
